A study of Mus musculus with 12 samples.

Results

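Interferon-stimulated and MHC class I genes were followed in mouse liver as a set of 53 genes, chosen by gene symbol and known function. Of these, 52 were found among the 35275 genes of the expression table (Gbp6 is named only), and 51 passed the filter on low values, a mean of at least 0.5 FPKM over the 12 libraries. The remaining gene, Mx1, an antiviral GTPase, lay between 0.0190 and 1.19 FPKM in the libraries and was not tested. FPKM is a per-length scale, the fragments assigned to a gene relative to gene length and library depth, so levels may be compared between genes. By role, the tested members comprised 16 antiviral effectors, 9 genes of the ISG15 system and other regulators, 5 transcription factors, 11 guanylate-binding or immunity-related GTPases and 10 genes of antigen processing and MHC class I.

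Interferons are secreted signals that bind paired receptors and, through Janus kinases, activate STAT proteins. Type I interferons drive a complex that holds STAT2 and IRF9 onto interferon-stimulated response elements (ISRE), whereas interferon gamma acts through gamma-activated sequences (GAS). The genes switched on in this way restrict viruses and intracellular microbes and raise the display of peptides on MHC class I, and in the liver they are expressed by hepatocytes as well as by resident macrophages and endothelial cells.

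Whole livers came from 12 mice, 3 in each of 4 groups, with each library from a different mouse. WT mice and Pctp-/- mice, which lack the phosphatidylcholine transfer protein PC-TP in the whole body, were fed either chow or the methionine- and choline-depleted (MCD) diet, which induces steatosis and liver injury. The study asked how loss of PC-TP alters the liver transcriptome on each diet. The study's animals were male. The age, strain and time on diet of these mice are not given in the sources used here, and neither is the deleted part of the gene. Libraries are named by group and replicate number, such as WT MCD 1.

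The libraries held 30486576 to 55179468 uniquely mapped reads. The uniquely mapped share was 77.59 to 79.41% in the chow libraries and 85.66 to 87.55% in the MCD libraries, so in any comparison between diets, diet and this difference in mapping cannot be told apart. Pctp itself lay at 1.21 to 2.65 FPKM in WT chow and 0.330 to 0.566 FPKM in Pctp-/- chow libraries, and at 3.61 to 7.90 and 0.156 to 0.329 FPKM on MCD, so the genotypes separated on both diets. Summed over 7 hepatocyte markers, of which albumin makes up most, the level was 40400 to 45400 FPKM in chow and 53000 to 74200 FPKM in MCD libraries. Of the 7, 1 rose and 4 fell on MCD in WT, and 1 rose and 3 fell in Pctp-/- mice. Of all tested genes, 34.5% rose and 22.5% fell in WT, and 26.0% and 24.4% in Pctp-/- mice. Some libraries stood high across the members. Pctp-/- chow 3 held the highest value of its group for 43 of 51 members, WT MCD 1 for 37 and Pctp-/- MCD 3 for 38.

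Promoter sequences are shown for 5 members that carry the results on diet and genotype: Isg15 and Ifit1, which responded strongly to the diet, Tgtp1 for its neighbouring pair of motifs, B2m as the most abundant member, and Bst2, which moved against most of the set. Each runs 5′ to 3′ on the gene's strand over the 150 bases upstream of the RefSeq transcription start (GRCm38.p6), with the letters of the ISRE core GAAANNGAAA or the GAS motif TTCNNNGAA, searched on both strands, in capitals. Adjoining or overlapping matches appear as 1 run of capitals, and ISRE cores read on the other strand appear as TTTCNNTTTC.
Isg15, chr4:156200819-156200968, minus strand: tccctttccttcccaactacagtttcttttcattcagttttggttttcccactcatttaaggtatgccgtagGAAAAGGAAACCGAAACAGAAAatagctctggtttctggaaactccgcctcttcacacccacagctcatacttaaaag
Ifit1, chr19:34640739-34640888, plus strand: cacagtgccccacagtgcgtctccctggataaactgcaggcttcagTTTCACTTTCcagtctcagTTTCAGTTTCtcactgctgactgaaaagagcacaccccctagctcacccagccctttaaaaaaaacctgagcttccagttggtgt
Tgtp1, chr11:48992247-48992396, minus strand: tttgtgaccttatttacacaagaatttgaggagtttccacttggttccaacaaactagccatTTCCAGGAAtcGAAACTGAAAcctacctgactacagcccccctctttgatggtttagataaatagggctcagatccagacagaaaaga
B2m, chr2:122147537-122147686, plus strand: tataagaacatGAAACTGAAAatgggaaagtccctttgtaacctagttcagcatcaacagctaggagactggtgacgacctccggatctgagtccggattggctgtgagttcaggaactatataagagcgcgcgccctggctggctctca
Bst2, chr8:71537473-71537622, minus strand: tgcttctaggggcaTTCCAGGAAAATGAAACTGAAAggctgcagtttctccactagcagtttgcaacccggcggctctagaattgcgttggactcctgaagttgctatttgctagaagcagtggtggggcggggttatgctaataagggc

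Over the whole window of 250 bases before to 50 bases after the start, 40 members had a promoter in the RefSeq table. An ISRE core was present in 19 of these 40 (47.5%), against 3.99% of all 27025 genes with a promoter, and a GAS motif in 13 (32.5%) against 9.55%. The GTPases held the ISRE core in 8 of 9 promoters and the GAS motif in 5 of 9. Among antiviral effectors the ISRE core was found in 6 of 12, and in antigen processing and MHC class I in 2 of 9, B2m and H2-T23. Isg15 held 3 overlapping cores, starting at -78, -72 and -66. Ifit1 held cores at -104 and -85, and Tgtp1 held a GAS motif at -88 next to a core at -77. Bst2, which fell on the diet, held 2 overlapping cores beside an overlapping GAS motif. A match describes these letters only, and no binding was measured.

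**Figure D1:**
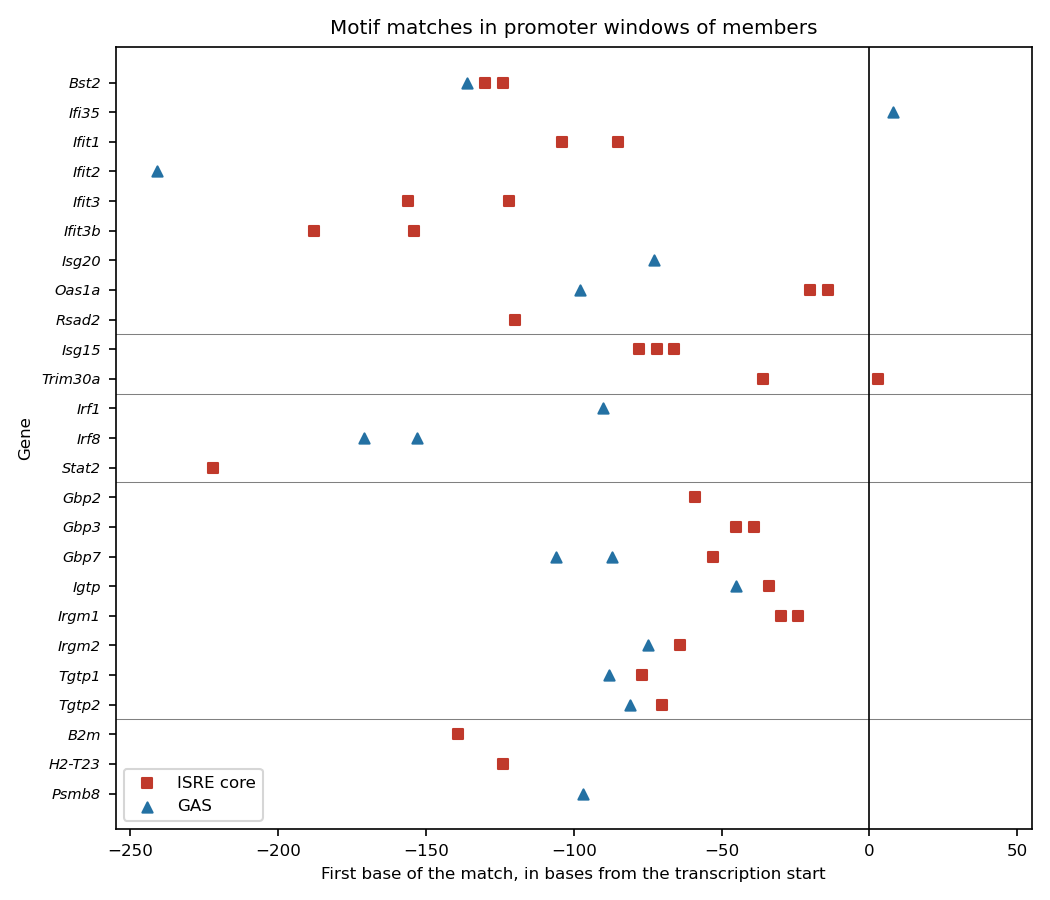
First base of each ISRE core (squares) and GAS motif (triangles) in the promoter windows of the members that held at least 1, in bases from the transcription start (0), grouped by role from antiviral effectors (top) to antigen processing and MHC class I (bottom). The GTPases held the ISRE core in 8 of 9 promoters.

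On the MCD diet most of the set rose in both genotypes. In bulk liver, a change in the number of cells of a type and a change in RNA per cell cannot be told apart. In WT livers 35 of 51 members rose and 2 fell, and in Pctp-/- livers 29 rose and 6 fell (adjusted p under 0.05 from limma on log2(FPKM + 1)). The background was 34.5% of the 12466 tested genes called higher and 22.5% called lower in WT, and 26.0% higher and 24.4% lower in Pctp-/- mice. The members' shares were 68.6% higher and 3.92% lower in WT, and 56.9% higher and 11.8% lower in Pctp-/- mice. The median log2 fold change was 0.83 over the members and 0.11 over all tested genes in WT, and 0.48 against 0.04 in Pctp-/- mice. The shift of all genes in WT disappeared with median-of-ratios scaling (0.00 over all genes), where the members' median was 0.72 and 34 rose and 3 fell.

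Of the members that rose, 28 rose in both genotypes, which is 80.0% of the WT list and 96.6% of the Pctp-/- list. The matching overlap over all tested genes is not given here, so these shares cannot be read as particular to the set. H2-D1, Irf9, Irgm2, Psmb9, Rsad2, Rtp4 and Tgtp2 passed in WT only, and Irf1 in Pctp-/- mice only. Bst2 and Tapbp fell in both, while Isg20, Psmb10, Tap1 and Tap2 passed as lower in Pctp-/- mice only. No member was called in opposite directions. The 9 members called in neither genotype were Gbp4, H2-K1, Ifi35, Igtp, Irf8, Mx2, Oas2, Psmb8 and Stat2. For 24 members (47.1%) all 6 MCD libraries lay above all 6 chow libraries, as they did for 2990 of the 12466 tested genes. For 2 (3.92%), Bst2 and Tapbp, all lay below, against 17.4% of all tested genes. In either direction the diets did not overlap for 26 members (51.0%), against 41.4% of all tested genes.

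**Figure D2:**
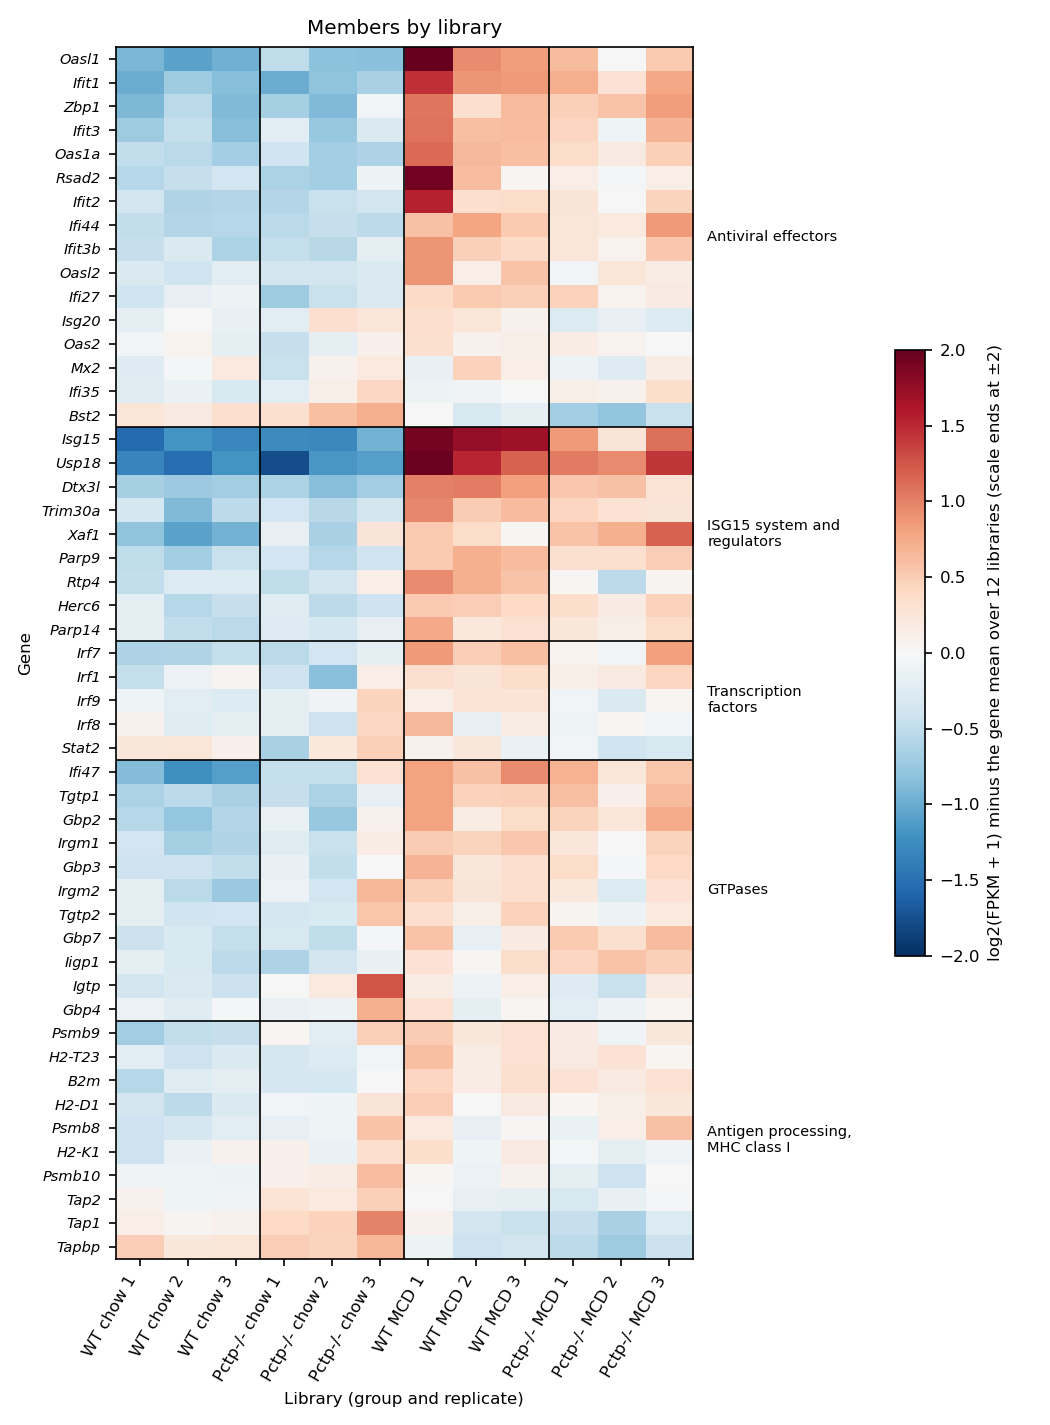
Level of each tested member (rows, grouped by role and sorted by the WT diet response) in each of the 12 libraries (columns), as log2(FPKM + 1) minus the gene's mean over the libraries, with colours cut at ±2. Isg15 and Usp18 were low in all 6 chow libraries and high in all 6 MCD libraries, while Tapbp and Bst2 showed the opposite order.

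**Figure D3:**
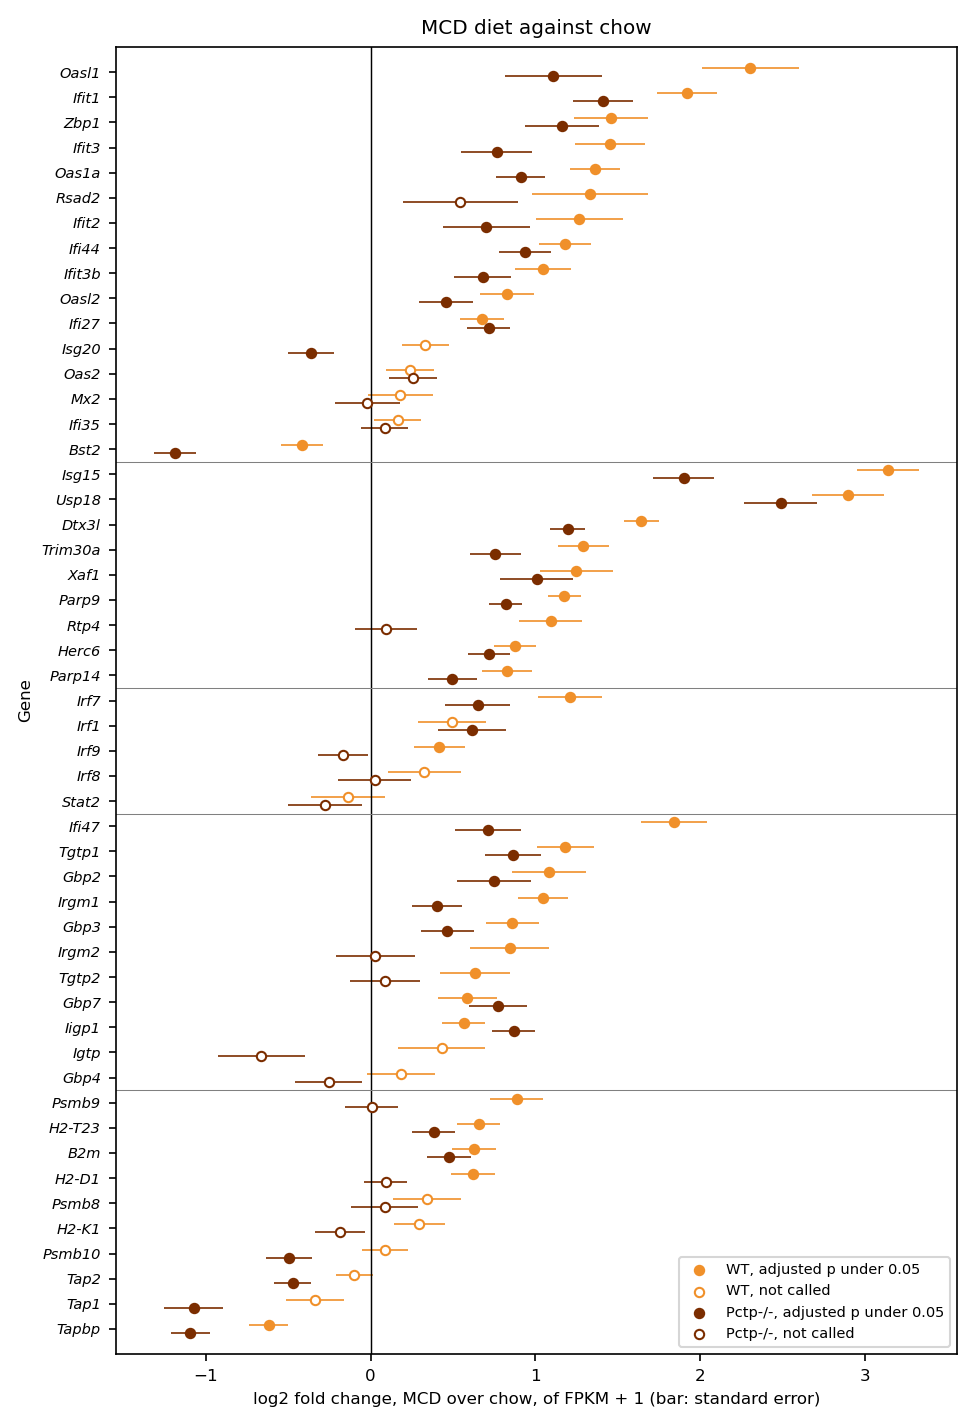
Log2 fold change of MCD over chow, on the log2(FPKM + 1) scale, for each tested member in WT (orange) and Pctp-/- (brown) mice, with standard errors as bars and filled points where the adjusted p was under 0.05. In WT 35 members rose and 2 fell, and in Pctp-/- mice 29 rose and 6 fell.

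The ISG15 system and other regulators rose throughout in WT. All 9 of its members passed in WT livers and 8 of 9 in Pctp-/- livers, the exception being Rtp4, a receptor transport protein. The shares of all tested genes called higher were 34.5% in WT and 26.0% in Pctp-/- mice. Isg15, a ubiquitin-like modifier that is conjugated to proteins, stood at 3.84, 5.24 and 4.77 FPKM in WT chow 1 to 3 and at 4.93, 4.84 and 6.40 FPKM in Pctp-/- chow 1 to 3. On MCD it reached 52.6, 47.5 and 45.1 FPKM in WT and 24.8, 16 and 29.5 FPKM in Pctp-/- mice. Every MCD library lay above every chow library, and on MCD every Pctp-/- library lay below every WT library. Mean FPKM thus rose 10.5-fold in WT (3.14 ± 0.19 on the log2 scale with its standard error, adjusted p = 1.44e-07 by limma) and 4.35-fold in Pctp-/- mice (1.90 ± 0.19, adjusted p = 8e-06).

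Usp18, the protease that removes ISG15 and dampens receptor signalling, stood at 0.886 to 1.38 FPKM in WT and 0.590 to 1.52 FPKM in Pctp-/- mice on chow. On MCD it was 20.1, 14.7 and 11.3 FPKM in WT and 10.2, 9.49 and 13.7 FPKM in Pctp-/- mice. The diets did not overlap and the genotypes did. The log2 fold changes with diet were 2.90 in WT (standard error 0.22) and 2.49 in Pctp-/- mice (standard error 0.22), with adjusted p of 8.74e-07 and 3.56e-06 from limma.

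The other members of this group had log2 fold changes of 0.83 to 1.64 in WT. Dtx3l, an E3 ubiquitin ligase, and its partner Parp9 rose by 1.64 and 1.18 in WT and by 1.20 and 0.82 in Pctp-/- mice. These genes lie head to head on chromosome 16 and overlap, and whether counting used the strand is not given in the sources used here, so reads in the overlap cannot be assigned with certainty. Herc6, a ligase of ISG15 in the mouse, rose by 0.88 in WT and 0.72 in Pctp-/- mice.

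Among antiviral effectors, 11 of 16 rose and 1 fell in WT, and 10 rose and 2 fell in Pctp-/- mice. The background was 34.5% higher and 22.5% lower in WT, and 26.0% and 24.4% in Pctp-/- mice. Ifit1, which binds viral RNA lacking the host cap modification, stood at 0.427, 0.731 and 0.582 FPKM in WT on chow and 0.430, 0.632 and 0.807 FPKM in Pctp-/- mice on chow. On MCD it stood at 6.84, 4.25 and 4.16 FPKM in WT and 3.69, 2.49 and 3.88 FPKM in Pctp-/- mice. The diets did not overlap, and the genotypes separated on MCD only. Ifit1 rose by 1.92 in WT (log2 scale, standard error 0.18, adjusted p = 4.43e-06 by limma) and by 1.41 in Pctp-/- mice (standard error 0.18, adjusted p = 6.01e-05).

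Oasl1, a member of the oligoadenylate synthetase-like family that represses translation of Irf7, was 1.21, 0.994 and 1.15 FPKM in WT on chow and 1.94, 1.36 and 1.33 FPKM in Pctp-/- mice on chow. The MCD libraries gave 18.1, 7.06 and 6.46 FPKM in WT and 5.49, 3.16 and 5.03 FPKM in Pctp-/- mice. The Pctp-/- libraries lay above WT on chow and below WT on MCD, and WT MCD 1 stood well above the other WT MCD libraries. The diet response was 2.31 in WT (log2 scale, standard error 0.29, adjusted p = 4.33e-05 from limma) and 1.11 in Pctp-/- mice (standard error 0.29, adjusted p = 0.00773). Without WT MCD 1 the WT response was 1.87 with an adjusted p of 1.51e-05.

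Bst2 (tetherin), which holds budding virions at the cell surface, was the antiviral effector with the highest mean level and moved the other way. It stood at 190, 183 and 203 FPKM in WT and 202, 246 and 269 FPKM in Pctp-/- mice on chow. On MCD it stood at 162, 130 and 142 FPKM in WT and 101, 92.6 and 119 FPKM in Pctp-/- mice. Every MCD library lay below every chow library. Bst2 fell, with log2 fold changes of -0.41 in WT (standard error 0.13, adjusted p = 0.015 by limma) and -1.19 in Pctp-/- mice (standard error 0.13, adjusted p = 1.57e-05). The WT call was lost without WT chow 3 (adjusted p = 0.0516) and without WT MCD 2 (adjusted p = 0.0646). The other effector that fell, in Pctp-/- mice, was Isg20, an exonuclease, at -0.36 (standard error 0.14, adjusted p = 0.0491). The Isg20 call held in 6 of the 19 alternatives in which it was tested, with adjusted p from 0.00289 to 0.191.

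The remaining effectors that rose in WT had log2 fold changes of 0.68 to 1.46. Ifi27, a mitochondrial interferon-induced protein, was abundant already on chow, at 43.2 ± 4.66 FPKM (SD, n = 3) in WT, and rose to 69.5 ± 3.54 FPKM (SD, n = 3). Ifit2 stood at 4.41 FPKM in WT MCD 1 against 1.34 and 1.39 FPKM in the other WT MCD libraries. Rsad2 (viperin) showed the same order, at 8.08 FPKM against 2.65 and 1.46 FPKM, and its WT log2 fold change of 1.33 became 0.80 without WT MCD 1 (adjusted p = 0.00635 by limma). Ifit3 and Ifit3b are near-identical neighbours, as are genes of the Oas1a family, and their reads may be split between copies.

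**Figure D4:**
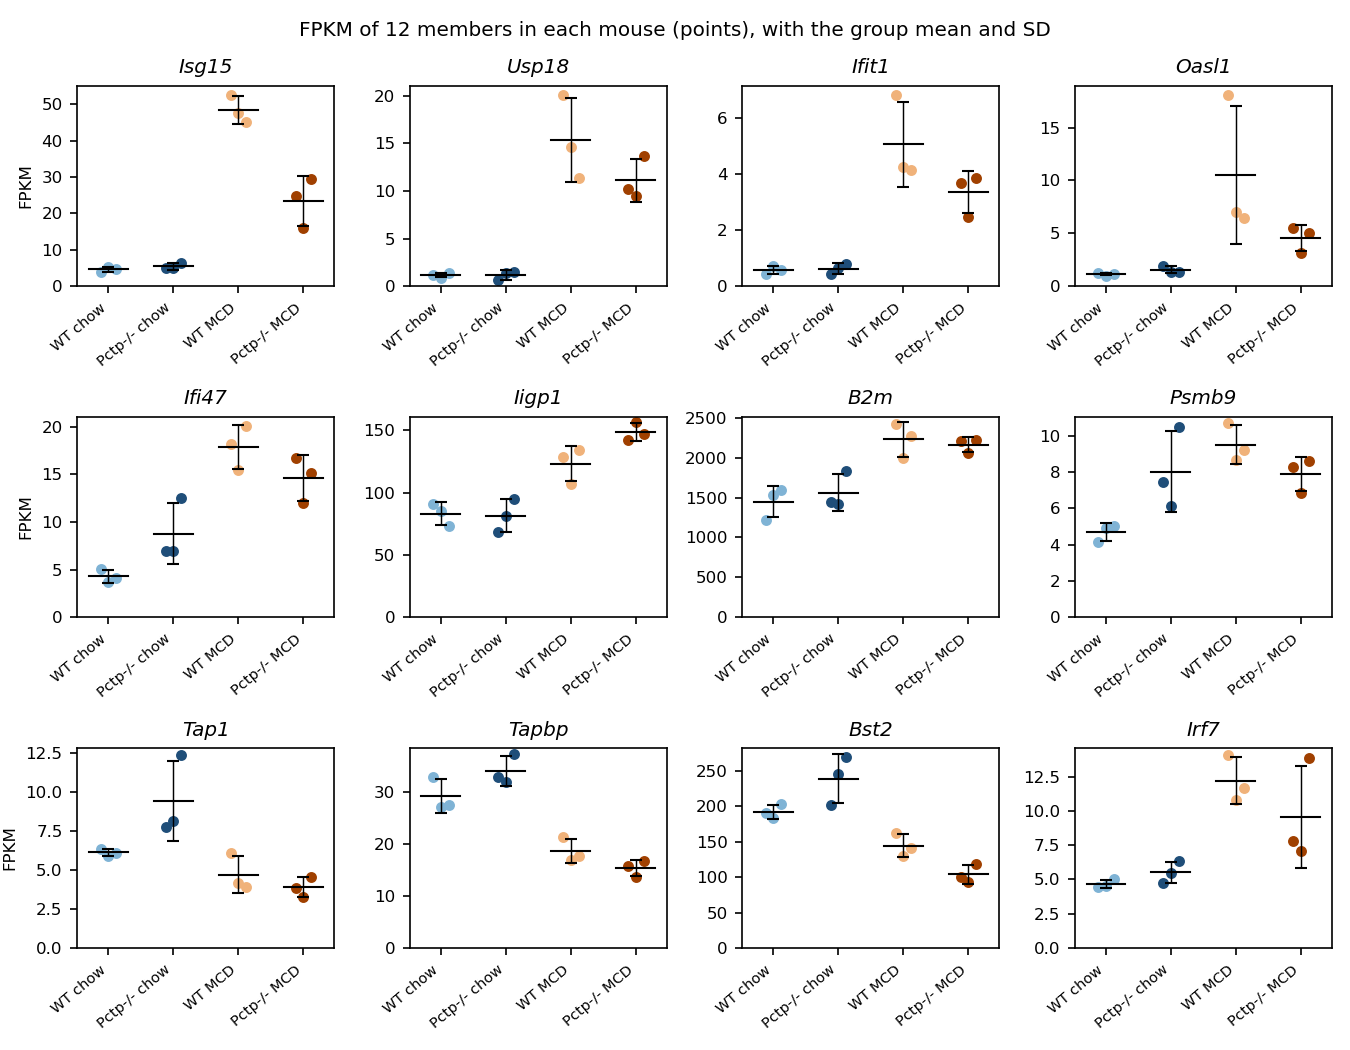
FPKM of 12 members in each mouse (points), with the group mean (line) and SD (bars), on linear axes that start at 0. Isg15 lay between 45.1 and 52.6 FPKM in WT on MCD and between 16 and 29.5 FPKM in Pctp-/- mice on MCD, with every chow library at or below 6.40 FPKM.

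Of the 5 transcription factors, 2 rose in each genotype, against 34.5% of all tested genes in WT and 26.0% in Pctp-/- mice. With 5 genes, these counts cannot be told from the background. Irf7, which amplifies type I interferon production, stood at 4.45, 4.54 and 5.01 FPKM in WT and 4.78, 5.45 and 6.34 FPKM in Pctp-/- mice on chow. On MCD it stood at 14.1, 10.8 and 11.7 FPKM in WT and 7.80, 7.08 and 13.9 FPKM in Pctp-/- mice. The diets did not overlap, and Pctp-/- MCD 3 stood within the WT range. Irf7 rose by 1.21 in WT (log2 scale, standard error 0.20, adjusted p = 0.000248 by limma) and by 0.65 in Pctp-/- mice (standard error 0.20, adjusted p = 0.0153). The latter call was lost when only the libraries compared entered the fit (adjusted p = 0.0512), and without Pctp-/- MCD 3 the value was 0.38 (adjusted p = 0.0464).

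Irf9, the DNA-binding part of the complex with STAT2, was called in WT only. It was 7.15, 6.51 and 6.18 FPKM on chow and 8.53, 9.47 and 9.51 FPKM on MCD in WT, and 6.64, 7.31 and 10.9 FPKM on chow and 7.41, 6.08 and 7.97 FPKM on MCD in Pctp-/- mice. The WT groups did not overlap and the Pctp-/- groups did. Irf9 rose by 0.42 in WT on the log2 scale (standard error 0.15, adjusted p = 0.033 by limma). This call was lost with median-of-ratios scaling (adjusted p = 0.0862), with quantile normalization (0.0578) and with no filter on low values (0.0592). It was also lost without WT chow 2 (0.0772), WT chow 3 (0.0939), WT MCD 2 (0.0833) or WT MCD 3 (0.0845). In Pctp-/- mice Irf9 differed by -0.17 between diets (adjusted p = 0.385).

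Irf1, an activator of MHC class I and of many interferon gamma targets, was called in Pctp-/- mice only. It stood at 9.64, 12.7 and 14.5 FPKM on chow and 17.6, 16.7 and 18.1 FPKM on MCD in WT, and at 10.1, 7.32 and 15.2 FPKM on chow and 15.2, 15.8 and 19.0 FPKM on MCD in Pctp-/- mice. The WT diets did not overlap, and Pctp-/- chow 3 reached the level of Pctp-/- MCD 1. Irf1 rose by 0.62 in Pctp-/- mice (log2 scale, standard error 0.21, adjusted p = 0.0253 by limma), and its change was 0.49 in WT (standard error 0.21, adjusted p = 0.0574). The Pctp-/- call was lost without Pctp-/- chow 1 (adjusted p = 0.0548), Pctp-/- chow 2 (0.114) or Pctp-/- MCD 3 (0.0913), with only the libraries compared (0.061) and with no filter on low values (0.0556).

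Stat2, the factor of this group with the highest mean, was 21.9 to 24.4 FPKM in WT on chow and 18.5 to 24.1 FPKM in WT on MCD. In Pctp-/- mice it was 12.7, 23.9 and 28.8 FPKM on chow and 15.2 to 19.6 FPKM on MCD. The groups overlapped, and the diet response was -0.13 in WT and -0.27 in Pctp-/- mice on the log2 scale, with standard errors of 0.22 and adjusted p of 0.627 and 0.33 from limma.

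Some of the GTPases attack the membranes around intracellular microbes. Of the 11 tested, 9 rose in WT, against 34.5% of all tested genes, and 7 in Pctp-/- mice, against 26.0%. No GTPase was called lower by limma, against 22.5% and 24.4%. The GTPase Igtp had an unadjusted p under 0.05 as lower in Pctp-/- mice. Iigp1, an immunity-related GTPase, was the most abundant of them. It stood at 91.2, 85.1 and 73.0 FPKM in WT and 68.2, 81.5 and 95.0 FPKM in Pctp-/- mice on chow, and at 128, 107 and 135 FPKM in WT and 142, 156 and 147 FPKM in Pctp-/- mice on MCD. The diets did not overlap, and on MCD every Pctp-/- library lay above every WT library. Iigp1 rose by 0.56 in WT (log2 scale, standard error 0.13, adjusted p = 0.00287 by limma) and by 0.87 in Pctp-/- mice (standard error 0.13, adjusted p = 0.000186).

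Ifi47, of the same family, had the largest log2 fold change of the GTPases in WT. It was 5.02, 3.68 and 4.12 FPKM in WT and 6.92, 6.91 and 12.5 FPKM in Pctp-/- mice on chow. On MCD it was 18.2, 15.5 and 20.1 FPKM in WT and 16.8, 12 and 15.2 FPKM in Pctp-/- mice. Pctp-/- chow 3 lay within the range of the Pctp-/- MCD libraries, and on chow every Pctp-/- library lay above every WT library. The diet response was 1.84 in WT (standard error 0.20, adjusted p = 1.33e-05 from limma) and 0.71 in Pctp-/- mice (standard error 0.20, adjusted p = 0.011). The latter call was lost without Pctp-/- chow 2 (adjusted p = 0.0503).

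Tgtp1, a T cell-specific GTPase gene whose neighbour Tgtp2 is nearly identical, was 0.205 to 0.318 FPKM in WT and 0.216 to 0.686 FPKM in Pctp-/- mice on chow. The MCD libraries gave 2.32, 1.60 and 1.64 FPKM in WT and 1.87, 1.02 and 1.93 FPKM in Pctp-/- mice. The diets did not overlap and the genotypes did. The log2 fold changes were 1.18 in WT (standard error 0.17) and 0.87 in Pctp-/- mice (standard error 0.17), with adjusted p of 0.000107 and 0.00123 from limma. The guanylate-binding proteins Gbp2, Gbp3 and Gbp7 rose in both genotypes, by 0.59 to 1.08 in WT and 0.47 to 0.77 in Pctp-/- mice. The Pctp-/- calls were lost without Pctp-/- chow 2 for Gbp2 (adjusted p = 0.0636) and Gbp3 (0.13) and without Pctp-/- MCD 3 for Gbp2 (0.0632) and Gbp3 (0.107). The Gbp3 call was also lost without Pctp-/- MCD 1 (0.0997), and the WT call of Gbp7 without WT MCD 1 (0.0597). Gbp4 did not pass in either genotype.

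In antigen processing and MHC class I the genes did not move together. In WT 4 of 10 rose and 1 fell, against 34.5% and 22.5% of all tested genes. In Pctp-/- mice 2 of 10 rose and 4 fell, against 26.0% and 24.4%. The numbers that rose were thus close to the background in both genotypes. B2m, the light chain of every MHC class I molecule, was the most abundant member of the whole set. It stood at 1224, 1539 and 1593 FPKM in WT and 1441, 1420 and 1830 FPKM in Pctp-/- mice on chow. On MCD it stood at 2432, 2000 and 2271 FPKM in WT and 2207, 2056 and 2230 FPKM in Pctp-/- mice. The diets did not overlap, the genotypes did, and B2m rose by 0.63 in WT (log2 scale, standard error 0.13, adjusted p = 0.00166 by limma) and by 0.48 in Pctp-/- mice (standard error 0.13, adjusted p = 0.0101).

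H2-T23, the non-classical class I heavy chain Qa-1, was 6.01, 5.06 and 5.61 FPKM in WT and 5.44, 5.71 and 6.78 FPKM in Pctp-/- mice on chow. On MCD it was 11.3, 7.98 and 8.97 FPKM in WT and 8.18, 8.83 and 7.28 FPKM in Pctp-/- mice. No MCD library overlapped a chow library. It rose by 0.66 in WT (log2 scale, standard error 0.13, adjusted p = 0.00103 from limma) and by 0.38 in Pctp-/- mice (standard error 0.13, adjusted p = 0.0265). The latter call was lost without Pctp-/- chow 1 (adjusted p = 0.0741), Pctp-/- chow 2 (0.0769), Pctp-/- MCD 1 (0.0684) or Pctp-/- MCD 2 (0.0947).

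The classical heavy chains were far more abundant. H2-D1 rose in WT from 404 ± 32.9 to 627 ± 108 FPKM (SD, n = 3 each), whereas H2-K1 stood at 279 ± 47.4 and 342 ± 51.5 FPKM (SD, n = 3 each) and did not pass. In Pctp-/- mice neither passed, with log2 fold changes of 0.09 for H2-D1 and -0.19 for H2-K1. These heavy chains share sequence with each other and with other class I genes, so that reads may be split between them.

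Psmb9, a catalytic subunit of the immunoproteasome, was 4.13, 4.90 and 5.03 FPKM in WT and 7.48, 6.11 and 10.5 FPKM in Pctp-/- mice on chow. The MCD libraries gave 10.7, 8.66 and 9.20 FPKM in WT and 8.26, 6.85 and 8.63 FPKM in Pctp-/- mice. The Pctp-/- libraries lay above WT on chow and below WT on MCD. The diet response was 0.89 in WT (log2 scale, standard error 0.16, adjusted p = 0.000565 from limma) and 0.01 in Pctp-/- mice (standard error 0.16, adjusted p = 0.98). Of the other immunoproteasome subunits, Psmb8 passed in neither genotype, and Psmb10 fell in Pctp-/- mice by 0.50 on the log2 scale, from 34.6 ± 7.45 to 24.1 ± 3.58 FPKM (SD, n = 3 each). That call was lost without Pctp-/- MCD 2 (adjusted p = 0.0504 by limma).

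Among the peptide loading genes, Tapbp fell in both genotypes, and Tap1 and Tap2 passed as lower in Pctp-/- mice. Tapbp (tapasin), which bridges the class I heavy chain and the peptide transporter, stood at 32.8, 27 and 27.4 FPKM in WT and 32.7, 31.8 and 37.2 FPKM in Pctp-/- mice on chow. On MCD it stood at 21.3, 17.0 and 17.6 FPKM in WT and 15.7, 13.7 and 16.7 FPKM in Pctp-/- mice. Every MCD library lay below every chow library. Tapbp thus fell, at -0.62 in WT (log2 scale, standard error 0.12, adjusted p = 0.000828 by limma) and -1.09 in Pctp-/- mice (standard error 0.12, adjusted p = 1.63e-05).

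Tap1, a subunit of the peptide transporter, was 6.33, 5.92 and 6.11 FPKM in WT and 7.76, 8.17 and 12.4 FPKM in Pctp-/- mice on chow. On MCD it was 6.07, 4.16 and 3.90 FPKM in WT and 3.88, 3.26 and 4.53 FPKM in Pctp-/- mice. The Pctp-/- groups did not overlap between diets, and WT MCD 1 lay within the WT chow range. Tap1 fell in Pctp-/- mice by 1.08 on the log2 scale (standard error 0.18, adjusted p = 0.000356 from limma). In WT its change was -0.34 (adjusted p = 0.12, standard error 0.18), and without WT MCD 1 it was -0.50 with an adjusted p of 0.0317. Tap2, the other transporter subunit, fell in Pctp-/- mice by 0.47.

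Tap1 and Psmb9 lie head to head on chromosome 17, Psmb9 on the minus strand (34181987 to 34187764) and Tap1 on the plus strand (34187553 to 34197225, GRCm38), and their 5′ ends overlap. As the strand setting is not given, reads in the overlap cannot be assigned with certainty. Their levels were set side by side after the values had been seen. The FPKM ratio of Tap1 to Psmb9 ranged from 1.04 to 1.53 in the 6 chow libraries and from 0.423 to 0.566 in the 6 MCD libraries, with no overlap. For Tapbp to B2m the ratio ranged from 0.0172 to 0.0268 across chow libraries and from 0.00664 to 0.00874 across MCD libraries.

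On chow, no member passed the test for the knockout (limma, adjusted p under 0.05), and 12 of 51 had an unadjusted p under 0.05, all of them higher in Pctp-/- mice. Over all genes 0.136% were called, and 3.35% had an unadjusted p under 0.05 as higher and 3.63% as lower. Without Pctp-/- chow 3, 5 members had an unadjusted p under 0.05 as higher and 2, Irf1 and Ifi27, as lower, against 2.30% and 4.80% of all tested genes. The median log2 fold change of the members was 0.19 against 0.01 over all tested genes, and 0.07 without Pctp-/- chow 3. In 10 members (19.6%) every Pctp-/- library lay above every WT library, against 5.17% of all tested genes, and in 0 every Pctp-/- library lay below, against 5.38%. The 10 were H2-D1, Psmb8, Psmb9, Psmb10, Tap1 and Tap2 of antigen processing, the GTPases Ifi47 and Igtp, Oasl1 and Xaf1, a pro-apoptotic factor. With median-of-ratios scaling the counts were 14 and 0, against 6.40% and 4.91% of all tested genes. Of the 10 named, Ifi47, Igtp and Xaf1 lie on chromosome 11, as does Pctp. The other members on that chromosome, Ifi35, Irf1, Irgm1, Irgm2, Tgtp1 and Tgtp2, overlapped between genotypes. Whether the shared chromosome plays a part was not tested.

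All 10 members of antigen processing and MHC class I had a log2 fold change above 0 on chow, between 0.09 and 0.64, and without Pctp-/- chow 3 B2m was at -0.01. Psmb9 had the largest, 0.64 (standard error 0.16, adjusted p = 0.231 from limma), and Ifi47 and Igtp had the largest of the set, both at 0.85 (adjusted p = 0.198 and 0.392). Pctp-/- chow 3 set the size of several of these. Igtp, named after its values were seen, was 17.9, 20.6 and 44.3 FPKM in Pctp-/- mice on chow against 13.0 to 14.4 FPKM in WT. Igtp overlaps Irgm2 on the same strand over most of its length, so reads there cannot be assigned with certainty. Without Pctp-/- chow 3 the log2 fold change was 0.46 for Igtp, 0.59 for Ifi47, 0.45 for Psmb9 and 0.33 for Tap1. The summed leukocyte markers were 17.4, 5.19 and 10.9 FPKM in Pctp-/- chow 1 to 3 and 12.3, 5.76 and 9.07 FPKM in WT chow 1 to 3, and Kupffer cell and macrophage markers 282, 113 and 235 FPKM and 199, 106 and 149 FPKM. Their part in these differences was not tested.

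On MCD, Isg15 was the member that passed for the knockout, lower in Pctp-/- mice at 23.4 ± 6.84 FPKM than in WT at 48.4 ± 3.83 FPKM (SD, n = 3 each). On the log2 scale the difference was -1.05, with a standard error of 0.19 and an adjusted p of 0.023 by limma. Thus 1 of 51 members was called, against 0.818% of all tested genes, and 13 members had an unadjusted p under 0.05 as lower and 1, Xaf1, as higher, against 13.0% and 3.30% of all tested genes. Without WT MCD 1 these counts were 7 and 2, the latter Gbp7 and Xaf1, against 8.80% and 2.90%. Without Pctp-/- MCD 2 they were 7 and 1, against 7.39% and 2.57%. The Isg15 call was lost without WT MCD 1 (adjusted p = 0.0821), WT MCD 2 (0.0937) or Pctp-/- MCD 2 (0.0701). It was also lost with no filter on low values (0.056) and when only the MCD libraries entered the fit (0.105), and its adjusted p ranged from 0.0161 to 0.105 over the alternatives. Rtp4 and Dtx3l, named after their values were seen, came next at -0.90 (adjusted p = 0.0541) and -0.49 (adjusted p = 0.0558). Rtp4 also passed without Pctp-/- chow 1 or without Pctp-/- chow 3, and Dtx3l without WT MCD 3, which made 2 calls each time.

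In 14 members (27.5%) every Pctp-/- library lay below every WT library on MCD, against 21.1% of all tested genes, and in 3 (5.88%) every Pctp-/- library lay above, against 5.50%. The 3 that lay above were Ifi35, Iigp1 and Xaf1. The 14 were Bst2, Ifit1, Isg20, Oas1a and Oasl1 of the antiviral effectors, Dtx3l, Isg15, Parp9, Rtp4 and Trim30a of the ISG15 system and regulators, Irf9, Irgm1, Psmb9 and Tapbp. Ifi35, Xaf1 and Irgm1 lie on chromosome 11, as does Pctp. The other members on that chromosome, Ifi47, Igtp, Irf1, Irgm2, Tgtp1 and Tgtp2, overlapped between genotypes on MCD. Whether the shared chromosome plays a part was not tested. With median-of-ratios scaling, added after seeing the data, 9 members (17.6%) lay below, against 10.6% of all tested genes, and 3 above, against 10.5%. The median log2 fold change was -0.24 over the members and -0.09 over all tested genes, and the members' median was -0.19 without WT MCD 1 and -0.15 without Pctp-/- MCD 2. The medians by role changed with the library left out. The antiviral effectors had -0.42, or -0.26 without WT MCD 1 and -0.27 without Pctp-/- MCD 2. The ISG15 system and regulators had -0.38, or -0.25 without WT MCD 1, and the transcription factors -0.32. Antigen processing and MHC class I had -0.20, or -0.05 without WT MCD 1 and -0.11 without Pctp-/- MCD 2. The GTPases had -0.17, or -0.04 without WT MCD 1 and -0.11 without Pctp-/- MCD 2.

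**Figure D5:**
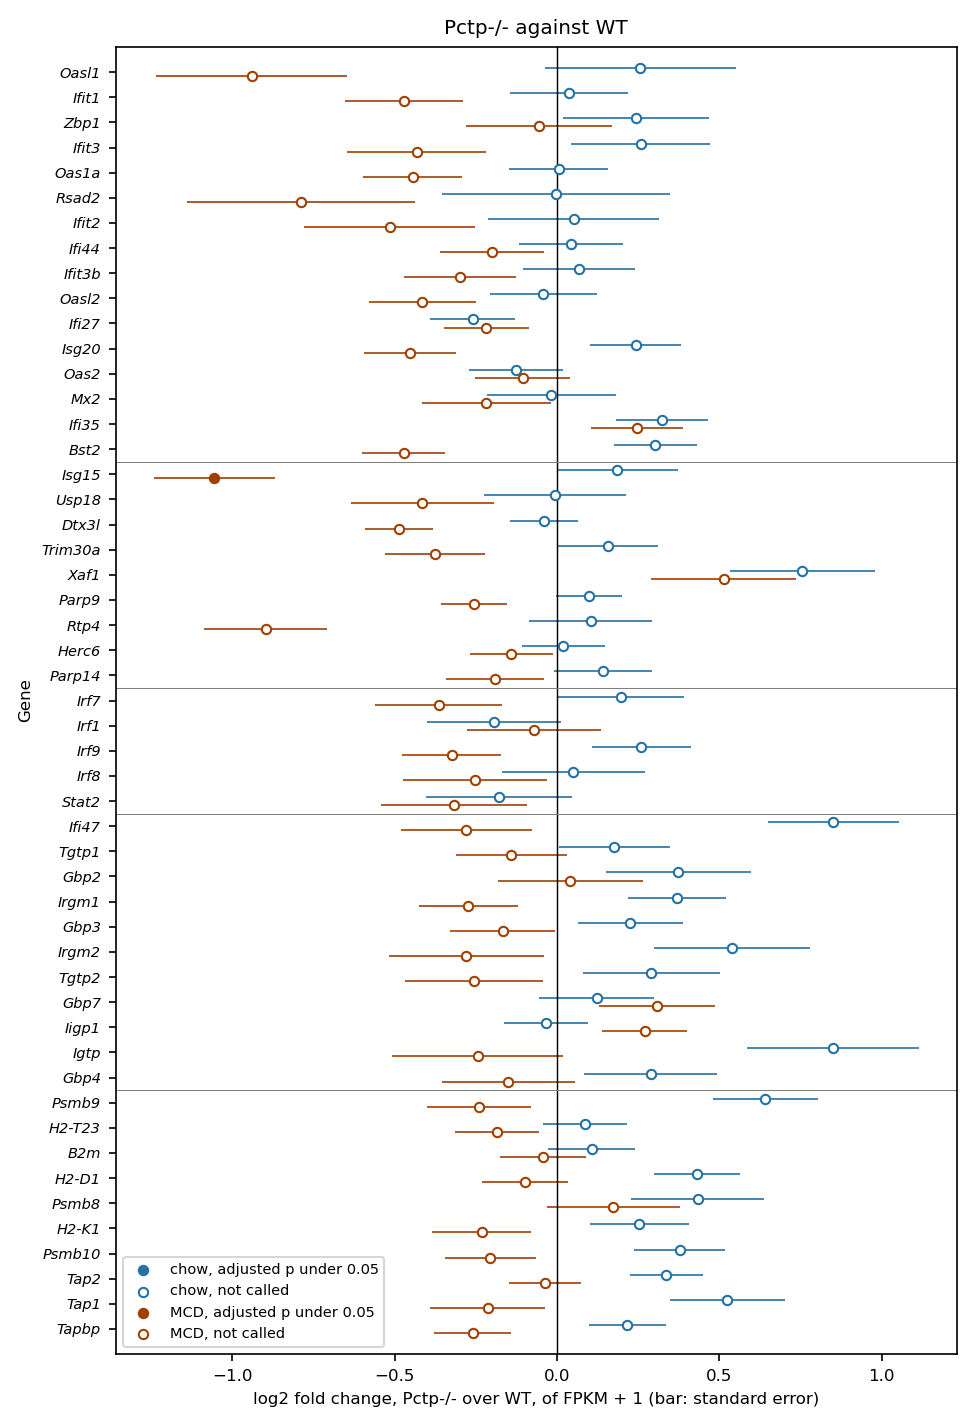
Log2 fold change of Pctp-/- over WT, on the log2(FPKM + 1) scale, for each tested member on chow (blue) and on MCD (brown), with standard errors as bars and filled points where the adjusted p was under 0.05. Of all points, Isg15 on MCD is the filled one, at -1.05.

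The difference between the diet responses of the genotypes was tested directly. No member passed (limma, adjusted p under 0.05), against 0.0963% of all tested genes called, and 21 of 51 had an unadjusted p under 0.05, all with the smaller value in Pctp-/- mice, against 11.2% of all tested genes with the smaller and 3.95% with the larger value. This count of 21 was 14 without Pctp-/- MCD 2, against 7.57% of all tested genes. The median difference was -0.44 over the members and -0.10 over all tested genes. It was -0.33 against -0.08 without Pctp-/- chow 3, -0.31 against -0.07 without WT MCD 1 and -0.38 against -0.09 without Pctp-/- MCD 2. Isg15 came closest, with a difference of -1.24 (standard error 0.26, adjusted p = 0.0901), followed by Bst2 at -0.77 (adjusted p = 0.111), Ifi47 at -1.13 (adjusted p = 0.131) and Psmb9 at -0.88 (adjusted p = 0.132). The log2 fold change with diet was larger in WT for 46 of 51 members (90.2%), against 64.6% of all tested genes. The exceptions were Ifi27, Irf1, Gbp7, Iigp1 and Oas2. The comparison is of signed values, so Bst2, Tapbp and Tap1, which fell further in Pctp-/- mice, count as larger in WT.

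Genes upstream of the members did not all follow them. The ligand genes Ifnb1, Ifna2, Ifna4, Ifnl2 and Ifnl3 were listed at 0 in every library, and Ifng was listed at 0 in the 6 chow libraries and between 0 and 0.254 FPKM on MCD. Of the ligands, receptors and signalling genes that are not members, 18 of 25 were tested. In WT 8 rose (44.4%) and 4 fell (22.2%), against 34.5% and 22.5% of all tested genes. In Pctp-/- mice 6 rose (33.3%) and 3 fell (16.7%), against 26.0% and 24.4%. The receptor subunits of interferon gamma rose in both genotypes, Ifngr1 by 1.03 in WT and 0.73 in Pctp-/- mice and Ifngr2 by 0.92 and 0.62. For the type I receptor, Ifnar2 fell, by 0.58 in WT and 0.86 in Pctp-/- mice, and Ifnar1 changed by 0.17 and -0.01 and did not pass. Il10rb, a receptor subunit for lambda interferons and IL-10, rose by 1.14 and 1.09. Socs3, a feedback inhibitor of cytokine receptors, fell by 1.48 in WT, and Irf5, a factor downstream of Toll-like receptors, fell by 0.86 in Pctp-/- mice.

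Of the nucleic acid sensors and adaptors, 15 of 17 were tested. In WT 8 rose (53.3%) and 1 fell (6.67%), against 34.5% and 22.5% of all tested genes. In Pctp-/- mice 7 rose (46.7%) and 1 fell (6.67%), against 26.0% and 24.4%. Ddx58, which encodes the RNA sensor RIG-I, rose by 1.10 in WT and 0.78 in Pctp-/- mice, and the RNA sensor Tlr7 by 0.86 and 0.74. Mavs, the mitochondrial adaptor of RIG-I, fell by 1.23 in WT and 0.58 in Pctp-/- mice. Tlr3, a sensor of double-stranded RNA, rose by 0.79 and 0.60. Nlrc5, a transactivator of MHC class I genes, changed by 0.31 and 0.42 and did not pass (adjusted p = 0.163 and 0.0701 from limma).

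Other interferon-stimulated genes, 38 of 42 tested, mostly rose as well, with 26 higher and 1 lower in WT and 20 higher and 4 lower in Pctp-/- mice. The shares were 68.4% and 2.63% in WT, against 34.5% and 22.5% of all tested genes. In Pctp-/- mice they were 52.6% and 10.5%, against 26.0% and 24.4%. Ifi27l2a, a relative of Ifi27, rose by 3.71 in WT and 2.21 in Pctp-/- mice, Cxcl10, a lymphocyte-attracting chemokine, by 2.48 and 1.58, and Ifitm1, a membrane restriction factor, by 1.93 and 0.91. Gbp9, a guanylate-binding protein, rose by 1.68 and 1.44. For the knockout on MCD, 2 of the 38 were called (5.26%, against 0.818% of all tested genes), both lower in Pctp-/- mice. Ifi27l2a stood at 34.7, 21 and 25 FPKM in WT and 11.6, 8.62 and 8.60 FPKM in Pctp-/- mice on MCD (-1.38 on the log2 scale, standard error 0.27, adjusted p = 0.0386 by limma). Lgals3bp, a secreted glycoprotein, stood at 61.0, 51.6 and 48.5 FPKM in WT and 33.9, 31.8 and 37.2 FPKM in Pctp-/- mice (-0.63 on the log2 scale, standard error 0.12, adjusted p = 0.0301). The genotypes did not overlap for either gene. The Ifi27l2a call held in 9 of 20 alternatives (adjusted p 0.0134 to 0.17) and was lost without any 1 of the 6 MCD libraries. The Lgals3bp call held in 10 of 20 (adjusted p 0.0213 to 0.146) and was lost without any 1 of the MCD libraries other than WT MCD 3.

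Of the other MHC class I and peptide loading genes, 18 of 19 were tested. In WT 11 rose (61.1%) and 0 fell, against 34.5% and 22.5% of all tested genes. At an unadjusted p under 0.05 by limma the WT counts were also 11 and 0. In Pctp-/- mice 6 rose (33.3%) and 3 fell (16.7%), against 26.0% and 24.4%. The non-classical gene H2-M3 rose by 1.12 in WT and 0.72 in Pctp-/- mice, H2-Q4 by 1.03 in WT, and Psme2, a proteasome activator subunit, by 0.90 and 0.50, while H2-Q7 fell by 0.84 in Pctp-/- mice. MHC class II genes, 6 of 9 tested, gave 0 calls in WT (0 with an unadjusted p under 0.05 by limma), against 57.0% of all tested genes called. In Pctp-/- mice 1 was called, against 50.3% of all tested genes. This was H2-DMa, a peptide exchange factor, lower by 0.77. The H2-DMa call was lost without Pctp-/- chow 1 (adjusted p = 0.13), Pctp-/- chow 3 (0.117), Pctp-/- MCD 1 (0.122) or Pctp-/- MCD 2 (0.0788). The Pctp-/- call of H2-M3 was lost without Pctp-/- chow 2 (log2 fold change 0.43, adjusted p = 0.0737) or Pctp-/- MCD 3 (0.55, adjusted p = 0.0825).

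Markers of other cell types moved with diet as well. The background with diet was 34.5% of all tested genes called higher and 22.5% lower in WT. In Pctp-/- mice it was 26.0% and 24.4%. Summed over 5 leukocyte markers, the level ranged from 5.19 to 17.4 FPKM across chow libraries and from 24.1 to 59.9 FPKM across MCD libraries, and 5 of 5 rose in WT and 4 in Pctp-/- mice. Of 9 Kupffer cell and macrophage markers, 9 rose in WT, where the sum was 106 to 199 FPKM on chow and 272 to 443 FPKM on MCD, and 2 rose in Pctp-/- mice, where it was 113 to 282 and 238 to 252 FPKM. The 2 of 9 in Pctp-/- mice was close to the background of 26.0%. Of 4 neutrophil markers, the 2 tested, S100a8 and S100a9, rose in both genotypes. Ly6g and Mpo were at most 0.0565 and 0.0503 FPKM in any library. The sum of the 4 was 0.432 to 0.512 FPKM in WT and 0.147 to 2.91 FPKM in Pctp-/- mice on chow. On MCD it was 17.1 to 22.5 FPKM in WT and 5.67 to 13.2 FPKM in Pctp-/- mice. Of 5 stellate cell markers, 4 rose in WT and 3 in Pctp-/- mice. Of the T and NK cell markers (3 tested of 10) and the B cell marker (1 tested of 4), 0 were called by limma with diet in either genotype, and 1, a B cell marker in Pctp-/- mice, had an unadjusted p under 0.05. None of the marker genes was at 0 in every library. For the knockout, 0 of 46 tested markers were called on either diet by limma. At an unadjusted p under 0.05, 1 was lower on chow, against 3.63% of all tested genes. On MCD 2 were higher and 5 lower, against 3.30% and 13.0%. The MCD sums of Kupffer cell and macrophage, neutrophil and endothelial markers were lower in every Pctp-/- than in every WT library. For the endothelial sum the nearest libraries were at 54.1 FPKM in Pctp-/- and 54.8 FPKM in WT mice. Single genes lay wholly lower in Pctp-/- mice on MCD for 21.1% of all tested genes, and wholly higher for 5.50%. The hepatocyte sum, mostly albumin, was higher in every Pctp-/- library, and the other sums overlapped. Of the hepatocyte markers, Alb and Serpina1a were higher in every Pctp-/- library on MCD, whereas Apoa1, Ttr, Cps1, Hnf4a and Asgr1 overlapped. These sums were not tested. The part of these cells in the members' diet response was not tested.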

How the data were processed

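RNA of whole liver from 12 mice was sequenced by Novogene. The authors deposited 1 FPKM table of all genes and libraries, and a table of read totals with mapping and quality percentages, which was used for depth. The genome build was mm10 per the labels. The aligner, counter, annotation and strand setting are not given in the sources used here. FPKM columns were used as deposited, with no rescaling, and no count per gene was recovered, so limma replaced a test on counts.

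The 53 members, their roles, the other lists and the cell markers were chosen with earlier results of these data known. Symbols and positions came from GENCODE M21 (34490 of 35275 identifiers matched). Of 35275 genes, 12466 with a mean of at least 0.5 FPKM were tested with limma 3.58.1 in R 4.3.3 on log2(FPKM + 1), which understates changes of low genes, with 1 mean per group over the 12 libraries, variance modelled as a trend of the mean and Benjamini-Hochberg adjustment over all tested genes. In all 5 contrasts were tested: Pctp-/- against WT within a diet, MCD against chow within a genotype, and the genotype by diet interaction. With 3 mice against 3, an exact permutation test cannot go below p = 0.1, so none was used.

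Values per library are given for the member with the highest mean in each role and for the 2 called members with the largest change in each role and contrast, or for all called members of the set in contrasts where 5 or fewer of them were called. Every other member given with values was picked with its values in view. Genes of the other lists are given as the 3 largest called changes, with the interferon receptors and Nlrc5, and 1 gene of that rule is not reported here. Promoters came from RefSeq (GRCm38.p6), and motifs were searched in 250 bases before to 50 bases after the start. Alternatives were the pseudocount (0.1), the filter (5 FPKM or none), median-of-ratios scaling, quantile normalization, the libraries compared alone, a replicate block, no trend and leaving out each library. Figures were drawn with matplotlib 3.10.9.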

Additional observations from a re-analysis of the deposited data

Results flagged for a closer look

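For Oasl1 and Psmb9, all 3 Pctp-/- libraries lay above all 3 WT libraries on chow and below them on MCD. Of all tested genes, 1.56% showed this order and 0.465% the opposite order, against 2 and 0 of the 51 members. The difference between the knockout effects on MCD and chow was -1.20 for Oasl1 (standard error 0.42, adjusted p = 0.204 from limma) and -0.88 for Psmb9 (standard error 0.23, adjusted p = 0.132), so neither passed the test of the difference. With median-of-ratios scaling, 2 members showed this order, against 1.19% of all tested genes.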

How the results depend on the processing

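The count of members called for the knockout on chow and for the difference of the diet responses was 0 under every alternative run. For the knockout on MCD it was 3 with a filter at 5 FPKM (27 members tested), 0 with no filter, 0 with the MCD libraries alone, and 0 to 2 when each library was left out. For the diet it was 18 in WT and 18 in Pctp-/- mice with the filter at 5 FPKM, which left 27 members, and 35 to 39 and 26 to 35 when each library was left out. Members lying wholly below WT on MCD numbered 9 with median-of-ratios scaling, an alternative added after seeing the data. Of 574 values of named called members over the alternatives, 549 kept direction and call, 25 lost the call and 0 changed sign.

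The replicate numbers in the labels number different mice. Same-number libraries correlated at -0.10 to 0.22 after removing group means, with 8 of 18 pairs over 0.1, and 9 of 12 libraries correlated best with their own number. With a replicate block the counts were 38 and 36 for the diet in WT and Pctp-/- mice, 1 for the knockout on MCD and 0 for the others.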
